A study of Mus musculus with 36 samples.

Results

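The 40 type I interferon-stimulated genes described here were chosen by symbol, as known targets of the pathway. A gene was kept when the count table of enteric glial cells (EGCs) held its symbol, which gave 39 genes of 43472, and Ifit3b was not analysed here. The study asked how EGCs respond to factors released by colorectal tumors. Primary embryonic neurosphere-derived EGCs of WT genotype, grown from whole intestines of mid-gestation C57BL/6J embryos, were left unstimulated or were stimulated with conditioned medium (CM) for 6 h, 12 h or 24 h. TME-CM was the medium of digested orthotopic tumors formed by MC38 cells, a mouse colorectal cancer line, and H-CM was the medium of healthy colonic tissue. Each of the 9 groups held 4 libraries, 36 in all, sequenced from the 3′ end of each mRNA. The labels do not say whether the 4 libraries of a group came from separate cultures, so p-values measure the spread between these libraries, which may be technical.

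Type I interferons are secreted cytokines that bind a receptor made of IFNAR1 and IFNAR2 and activate the kinases JAK1 and TYK2. The signal runs through STAT2 and IRF9, parts of a complex named ISGF3 that binds interferon-stimulated response elements (ISREs) near its target genes. The products of these genes sense foreign nucleic acid, block viral entry, replication and translation, and limit the signal itself. Part of the set also answers to interferon gamma. Enteric glia surround the neurons of the gut wall and are known to respond to cytokines.

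The ISRE is read here as GAAA, any 2 bases and GAAA on either strand, the GAS element of interferon gamma targets as TTCNNNGAA, and the NF-kappaB site by its name alone. RefSeq promoters of build GRCm38.p6, 250 bases before to 50 bases after the annotated start, were matched for 29 of the 39 genes. The ISRE letters occurred in 14 of these 29 genes (48.3%), beside 3.99% of 27025 genes with a promoter of this length. GAS letters occurred in 7 of the 29 (24.1%, beside 9.55% of all genes) and the NF-kappaB consensus in 2 (6.9%, beside 5.14%). A match of letters is a description and not a binding site, and overlapping matches were each counted.

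The windows below show how the letters lie in genes whose values are given further on, in capitals wherever the ISRE letters match. On the opposite strand they read TTTC, any 2 bases and TTTC. Those of Isg15 (chr4:156200855-156200916, minus strand), Ifit1 (chr19:34640765-34640833, plus), Ifit3 (chr19:34583353-34583436, plus) and Bst2 (chr8:71537567-71537622, minus) hold 2 or 3 matches. Those of Rsad2 (chr12:26456543-26456592, minus), Stat2 (chr10:128270256-128270305, plus) and Ifitm2 (chr7:140955978-140956027, minus) hold 1. In Ifitm3 (chr7:141010715-141010744, minus) both matches lie just past the annotated start, and Ifitm1 had none in its window, of which the 60 bases before the start are shown (chr7:140968016-140968075, plus).
Isg15: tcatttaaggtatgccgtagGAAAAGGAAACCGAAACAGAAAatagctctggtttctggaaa
Ifit1: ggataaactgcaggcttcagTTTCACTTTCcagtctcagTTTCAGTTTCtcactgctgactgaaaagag
Ifit3: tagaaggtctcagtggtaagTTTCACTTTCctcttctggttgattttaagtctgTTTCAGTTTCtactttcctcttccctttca
Bst2: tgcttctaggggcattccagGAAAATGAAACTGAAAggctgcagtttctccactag
Rsad2: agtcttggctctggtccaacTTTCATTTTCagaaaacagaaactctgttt
Stat2: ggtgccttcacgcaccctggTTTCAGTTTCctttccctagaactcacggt
Ifitm2: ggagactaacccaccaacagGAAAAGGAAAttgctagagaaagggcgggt
Ifitm3: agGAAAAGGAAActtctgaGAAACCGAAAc
Ifitm1: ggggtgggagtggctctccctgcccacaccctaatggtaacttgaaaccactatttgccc

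Several of the genes are neighbours. In the GRCm38 annotation, 7 clusters of genes less than 200 kb apart hold 19 of the 40 symbols. Ifitm1, Ifitm2 and Ifitm3 lie within 55.9 kb of chromosome 7, the Ifit genes within 99.3 kb of chromosome 19, and Parp14, Dtx3l and Parp9 within 139.7 kb of chromosome 16. Exon bases of 13 of the genes overlap with another gene, and reads of these bases cannot be assigned with certainty. On the same strand, Herc6 shares 1269 bases with Gm45193, Rtp4 296 with Gm45338, Ifitm2 268 with Gm45717, Irf9 123 with Rnf31 and Parp14 110 with Gm49730. Parp9 and Dtx3l share 458 on opposite strands, and the strand setting of the counting was not given in the sources used here.

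Library totals ran from 13518 to 7552509 counts. H-CM replicate 4 of 6 h was the smallest, with 9 of the 39 genes detected and 28 counts on them. Levels in CPM are counts scaled to a common library size, on 1 TMM scale, where 1 count in this library is 36.8 CPM. Taken as the upper limit behind a 0, 3 counts correspond to 222 CPM there by the library total alone, without TMM. This limit covers counting error only. Together with unstimulated replicate 3 of 6 h (256453 counts), H-CM replicate 4 makes the values of 6 h the least precise. Markers of enteric glia were all detected at each time, with a summed level of 288 to 391 CPM over the 12 libraries of 24 h. Enteric neuron markers summed to 308 to 492 CPM there, and fibroblast and smooth muscle markers to 6068 to 12136 CPM. Bulk RNA cannot tell other cells from glia that express such genes. With its own marker genes, the paper reports strong glial enrichment and minimal expression of other cell types in these cultures. T and NK cell markers summed to at most 5.36 CPM and epithelial markers to at most 7.28 CPM at 24 h.

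At 24 h, H-CM alone raised 23 of the 35 interferon-stimulated genes tested against unstimulated EGCs, beside 1.07% of all genes. TME-CM raised 31 of the 35, beside 4.82% of all genes. Of the 35, 5 passed the filter on low counts with no unstimulated library at its cutoff, as described below. The score, the mean log2 CPM over the 39 genes, was 2.04 ± 0.21 (SD, n = 4) in unstimulated EGCs at 12 h, 3.91 ± 0.72 in H-CM EGCs and 5.12 ± 0.43 in TME-CM EGCs. At 24 h, it was 2.30 ± 0.18, 4.02 ± 0.47 and 4.75 ± 0.37 in the same order. No unstimulated library of 12 h or 24 h overlapped with those of either medium. In bulk RNA, fewer responding cells and less RNA per cell cannot be told apart.

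**Figure D1:**
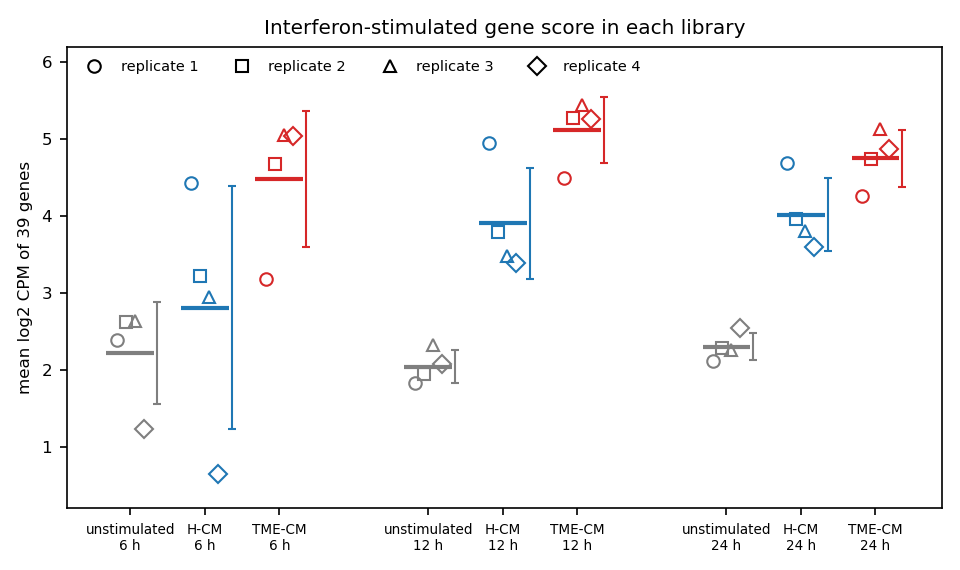
Mean log2 CPM of the 39 interferon-stimulated genes (vertical axis) in each of 36 libraries, by medium and time, where symbols mark the replicate number, lines the mean and bars the SD of 4 libraries. H-CM replicate 1 lies above TME-CM replicate 1 at all 3 times, while unstimulated libraries stay at or below 2.63.

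Within H-CM and within TME-CM, replicate 1 lay at an end of the group's scores at each time. Dixon's test, given below, flagged no group of scores, and H-CM replicate 4 of 6 h, the smallest library, lay at 0.641. H-CM replicate 1 had the highest score of its group at each time, with 4.43 at 6 h, 4.95 at 12 h and 4.69 at 24 h. TME-CM replicate 1 had the lowest of its group, with 3.18, 4.49 and 4.26. The H-CM and TME-CM scores thus overlapped at each time, and did not overlap without TME-CM replicate 1.

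The order was shared by most of the 39 genes. The same counts were not made over all genes, so those below cannot be read as particular to these genes. In H-CM replicate 1, 34 of 39 genes had their highest level of the 4 H-CM libraries at 12 h, and 34 at 24 h. In TME-CM replicate 1, 26 of 39 had their lowest level of the 4 at 12 h and 28 at 24 h. Between these 2 libraries, 32 of 39 genes were higher in H-CM at 12 h and 29 at 24 h. The counts of genes called between TME-CM and H-CM are therefore given below also without each of these libraries, with values for a few genes.

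H-CM EGCs were compared with unstimulated EGCs to see what medium of healthy tissue does. Of the 34 genes tested at 12 h, 17 rose with H-CM and 0 fell (edgeR quasi-likelihood test, adjusted p under 0.05), beside 0.354% of all genes tested that rose. At 24 h, 23 of 35 rose and 0 fell, beside 1.07% of all genes. The 17 genes of 12 h were all among the 23 of 24 h. Of the 43 genes of any kind that rose at 12 h, 17 are thus interferon-stimulated genes. Over the interferon-stimulated genes tested, the median log2 fold change was 2.0 at 12 h and 1.93 at 24 h, beside 0.00 over all genes at both times. The 4 H-CM libraries lay above all unstimulated ones for 22 of 34 genes at 12 h (2.27% of all genes) and 25 of 35 at 24 h (4.14%). 

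Genes that are low without stimulation entered these tests through the stimulated libraries. At 12 h, 6 of the 34 genes (Isg15, Oasl1, Mx2, Cmpk2, Rtp4 and Xaf1) had no unstimulated library at the cutoff of the filter on low counts, 2.44 CPM. At 24 h, 5 of the 35 had none (Dhx58, Zbp1, Oasl1, Mx2 and Xaf1), at a cutoff of 1.83 CPM. Such genes had to be higher in a stimulated group, so the shares called over the genes tested are a description.

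Of the 17 genes called at 12 h, 8 were called with any 1 library left out, and of the 23 at 24 h, 18. Without unstimulated replicate 3, the count at 12 h was 8, and without unstimulated replicate 1 it was 9. At 24 h, 1 model of all 36 libraries called 11 in place of 23. At 24 h the fibroblast and smooth muscle markers were also lower in H-CM (6068 to 7199 CPM) than in unstimulated EGCs (9970 to 12136 CPM), and macrophage and leukocyte markers overlapped (77.6 to 349 CPM and 56.7 to 231 CPM). Their part in these changes was not tested.

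Irf9 and Stat2, of ISGF3, and Irf7 all rose with H-CM at 24 h. In 1 model of all 36 libraries, Irf9 was still called there (edgeR adjusted p = 0.00682), while Stat2 (0.0568) and Irf7 (0.307) were not. Irf9, the DNA-binding part of ISGF3, was at 14.2, 8.18, 18.8 and 13.1 CPM in the unstimulated libraries of 12 h (replicates 1 to 4). In H-CM it was at 120, 78.8, 61.5 and 53.6 CPM, all above. The log2 fold change was 2.50 ± 0.28 (SE; edgeR adjusted p = 0.000113) at 12 h and 1.83 ± 0.19 (adjusted p = 1.38e-05) at 24 h.

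Stat2, which encodes its transactivating part, was at 5.26, 8.16, 9.85 and 7.03 CPM unstimulated and at 51.4, 28.1, 26.8 and 24.7 CPM in H-CM at 24 h, without overlap. It rose by a log2 fold change of 2.60 ± 0.39 (adjusted p = 0.0025) at 12 h and 2.10 ± 0.27 (adjusted p = 0.000125) at 24 h. Irf7, which amplifies interferon production, rose at 24 h (2.63 ± 0.39, adjusted p = 0.000799), with 0.985 to 3.33 CPM in unstimulated and 8.90 to 21.5 CPM in H-CM libraries. At 12 h its adjusted p was 0.216, with a log2 fold change of 2.50.

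Among the genes of ISG15 conjugation and feedback, 3 of 4 tested rose at both times. Isg15 encodes a ubiquitin-like protein that is conjugated to other proteins and also secreted. Its level was 2.03, 1.64, 1.59 and 0.819 CPM in unstimulated EGCs of 12 h, and 21.2, 23.6, 58.0 and 12.4 CPM in H-CM EGCs. The groups did not overlap, at a 20.7-fold difference (log2 4.37 ± 0.63, adjusted p = 0.00277). No unstimulated library of 12 h reached the filter's cutoff for Isg15, so it had to be higher in a stimulated group. Usp18, which removes ISG15 and blocks the receptor, was at 1.25, 2.40, 0.704 and 3.08 CPM unstimulated and 44.8, 18.0, 18.8 and 9.39 CPM in H-CM at 24 h. Its log2 fold change there was 3.58 ± 0.48 (adjusted p = 0.000891). Trim25, a ubiquitin ligase of the RIG-I pathway, rose 3.32-fold at 12 h (adjusted p = 0.00628) and 2.63-fold at 24 h (adjusted p = 0.000723). Both calls of Trim25 were lost in 1 model of all 36 libraries (adjusted p of 0.0883 and 0.515). The ISG15 ligase gene Herc6 had a log2 fold change of 1.08 at 24 h with an adjusted p of 0.0832.

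Of the 4 sensors of viral nucleic acid tested at 24 h, 2 rose. Ddx58 (RIG-I) rose 2.91-fold at 24 h (log2 1.54 ± 0.17, adjusted p = 1.50e-05), from 21.3 to 27.4 CPM in unstimulated to 55.8 to 96.3 CPM in H-CM libraries. Ifih1 (MDA5) rose 3.34-fold at 24 h (adjusted p = 0.00249). Both also passed at 12 h (adjusted p of 0.0127 and 0.0122). That call of Ddx58 was lost without any 1 of the 4 unstimulated libraries (up to 0.0728) and that of Ifih1 without unstimulated replicate 1 or 3 or H-CM replicate 1 (up to 0.0523). In 1 model of all 36 libraries, the calls of Ifih1 at both times and of Ddx58 at 24 h were lost. Dhx58 (LGP2) did not pass at 24 h (log2 1.12, adjusted p = 0.665) and was at 3.76 CPM or below in the H-CM libraries of 12 h and 24 h.

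The IFIT proteins bind viral RNA and stop its translation. Ifit1 was at 0.501, 4.80, 0.985 and 5.06 CPM unstimulated and at 62.5, 36.7, 33.0 and 15.3 CPM in H-CM at 24 h. It rose without overlap (log2 3.62 ± 0.57, adjusted p = 0.00716), and so did Ifit3, from 6.91 to 9.99 CPM to 24.7 to 117 CPM (log2 2.85, adjusted p = 0.012). Without unstimulated replicate 1, 2 or 4 of 24 h, Ifit3 was past the threshold no more (adjusted p from 0.0532 to 0.059). The same held in 1 model of all 36 libraries (0.111). Oasl2 and Eif2ak2 (PKR), which answer double-stranded RNA, rose at both times. At 12 h the call of Oasl2 was lost without 4 of the 8 libraries in turn (adjusted p up to 0.103). At 24 h that of Eif2ak2 was lost without unstimulated replicate 3 or 4 or H-CM replicate 1 (up to 0.0723) and in 1 model of all 36 libraries (0.264). The H-CM call of Oasl2 at 24 h, and that of Rsad2 (viperin), were lost on leaving out 7 of the 8 libraries in turn, with adjusted p up to 0.116 and 0.135.

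Bst2 (tetherin), which holds virions at the cell surface, was at 13.3, 12.5, 13.7 and 16.9 CPM in unstimulated EGCs of 24 h and at 223, 81.5, 57.6 and 54.4 CPM in H-CM EGCs. The groups did not overlap (log2 2.88 ± 0.48, adjusted p = 0.0107), and the call was lost without unstimulated replicate 1 or 2 (adjusted p of 0.0529 and 0.0522). Lgals3bp, a secreted galectin-binding glycoprotein, rose 4.86-fold at 24 h (log2 2.28 ± 0.22, adjusted p = 1.48e-05), and Rtp4, a chaperone of receptor transport, 19.4-fold (log2 4.28 ± 0.50, adjusted p = 0.000891). Dtx3l, the ubiquitin ligase that partners PARP9, rose 5.33-fold (adjusted p = 1.55e-05), a call lost in 1 model of all 36 libraries (0.0804). 

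**Figure D2:**
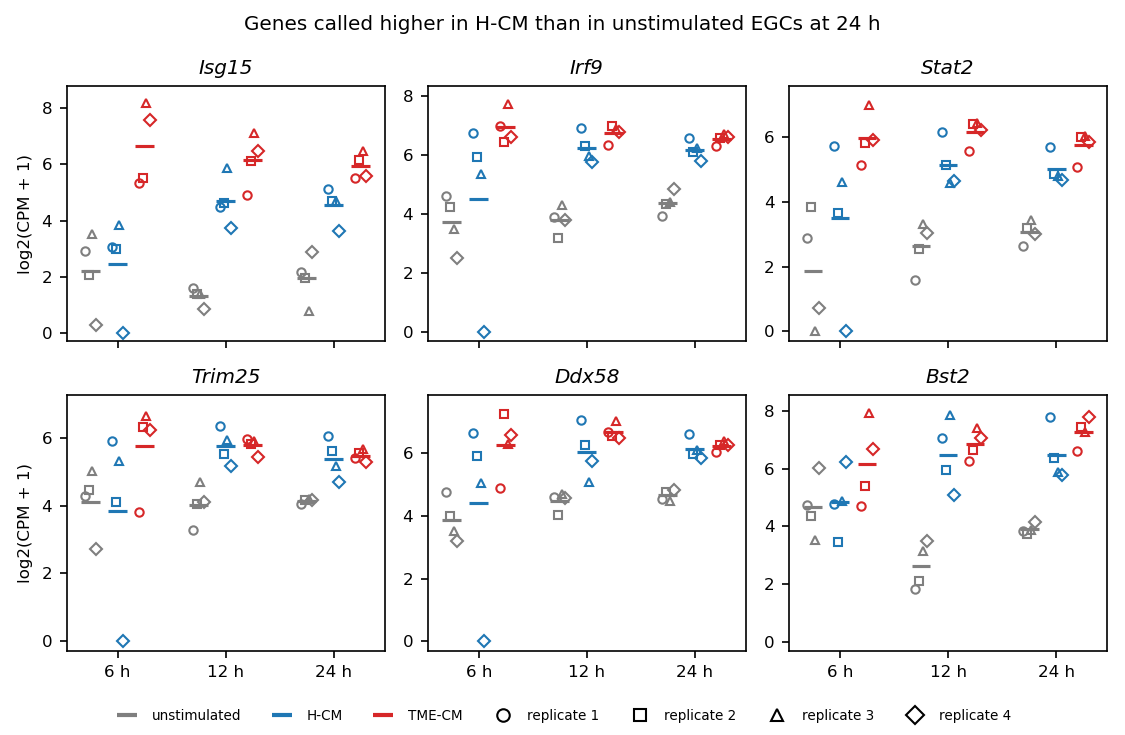
Levels of 6 genes that rose with H-CM at 24 h, as log2(CPM + 1) in each library (vertical axis) by time, where colours mark the medium, symbols the replicate number and lines the mean. At 24 h the 4 H-CM libraries lie above the 4 unstimulated ones for each gene, and Trim25 is at 43.7 ± 17.8 CPM in H-CM and 43.8 ± 5.36 CPM in TME-CM (SD, n = 4).

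At 6 h, none of the 30 genes tested was called between H-CM and unstimulated EGCs with edgeR or with DESeq2, beside 0% of all genes. An unadjusted p under 0.05 was found for 10, all higher, with no share of all genes computed at that threshold. H-CM lay above unstimulated without overlap for 2 of 30 genes (0.486% of all genes).

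TME-CM EGCs were compared with unstimulated EGCs for the full size of the tumor response. At 6 h, 6 of 30 genes rose (0.432% of all genes), namely Isg15, Irf9, Ifit1, Ifit3, Oasl2 and Eif2ak2. Of the 30, 6 had no unstimulated library at the filter's cutoff of 6 h, 6.55 CPM, Oasl2 among them. At 12 h 27 of 34 rose (2.67%), and at 24 h 31 of 35 (4.82%), which include all 27 of 12 h. None fell, and the median log2 fold change over the genes tested was 3.08, 3.09 and 2.82. As in the H-CM tests, genes with no unstimulated library at the cutoff had to be higher in a stimulated group. The shares called are thus a description. Markers of other cells moved too. At 24 h, 5 of 8 fibroblast and smooth muscle markers were lower in TME-CM than in unstimulated EGCs and 2 higher, with a summed level of 6430 to 7805 CPM in TME-CM, and 1 of 10 macrophage and leukocyte markers tested was higher (76.5 to 375 CPM summed). Their part in these changes was not tested. The count of 6 h went from 6 to 12 without TME-CM replicate 1, and to 13 with DESeq2.

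By role, TME-CM raised at 24 h all 3 tested genes of ISGF3 and IRF7, all 4 of ISG15 conjugation and feedback, all 4 sensors and all 4 PARP and ubiquitin ligase genes. Of the sensors, Zbp1 and Dhx58 had no unstimulated library at the filter's cutoff and were carried past it by stimulated libraries. It raised 2 of 3 IFIT genes, 2 of 3 of the OAS family and PKR, 7 of 8 GTPases, nucleotide enzymes and restriction factors, and 5 of 6 others.

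In TME-CM, Usp18 was at 22.9, 38.3, 43.5 and 35.8 CPM at 24 h, 17.9-fold above unstimulated EGCs (adjusted p = 2.32e-05). Ifit1 was at 56.0, 94.2, 127 and 76.2 CPM (28.7-fold, adjusted p = 0.000168), and Ifit3 at 43.9, 131, 114 and 113 CPM (11.9-fold, adjusted p = 0.000604). For each of these 3 genes the TME-CM libraries lay above all unstimulated ones and overlapped with H-CM.

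Stat2 was at 33.1, 63.2, 64.7 and 56.8 CPM in TME-CM at 24 h (7.01-fold above unstimulated EGCs, adjusted p = 3.13e-07). Irf9 was at 79.6, 94.6, 106 and 98.0 CPM (4.51-fold, adjusted p = 3.80e-08). Irf7 was at 13.2 CPM in replicate 1 and at 30.8 to 36 CPM in the others (13.1-fold, adjusted p = 1.14e-06), and replicate 1 is the lowest in each of these. Bst2 was at 97.5, 172, 155 and 222 CPM (11.4-fold, adjusted p = 0.000706).

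Dhx58, which the filter kept through stimulated libraries, was at 2.30, 4.21, 5.10 and 3.18 CPM in TME-CM against at most 0.987 CPM unstimulated (6.87-fold, adjusted p = 0.00711). Cmpk2, a mitochondrial nucleotide kinase next to Rsad2, rose 5.84-fold with TME-CM (adjusted p = 0.00187), and its adjusted p with H-CM was 0.0794. Ifi44 rose 11.3-fold with H-CM (adjusted p = 0.00952) and 19.8-fold with TME-CM (adjusted p = 0.000501). Mx2, of the dynamin-like GTPase family, is marked as a polymorphic pseudogene in the annotation. It stayed at 8.46 CPM or below in each library of 24 h and was called against unstimulated EGCs with both media. No unstimulated library of 24 h reached the filter's cutoff for Mx2. Its H-CM call was lost in 1 model of all 36 libraries (adjusted p = 0.425).

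Of the 39 genes, 8 were called in none of these comparisons or between the media. Oas1a, Oas2, Oas3 and Mx1 had 35 to 126 counts over all 36 libraries and passed the filter on low counts at no time. Ifit2, Oasl1, Samhd1 and Ifi27 were tested at 24 h. Ifi27 was at 58.7 to 91.1 CPM unstimulated, 64.9 to 117 CPM in H-CM and 71.0 to 98.3 CPM in TME-CM, all overlapping. Samhd1, which breaks down nucleotides, was at 34.5 ± 2.63, 34.6 ± 1.59 and 35.9 ± 8.26 CPM (SD, n = 4) in unstimulated, H-CM and TME-CM EGCs there.

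What tumor medium does beyond healthy medium was then read from TME-CM set against H-CM. Of 35 genes tested at 24 h, 6 rose in TME-CM and 0 fell (edgeR adjusted p under 0.05), beside 2.75% of all genes that rose. These were Ifitm1, Ifitm2, Ifitm3, Zbp1, Parp9 and Parp14. Of these, Zbp1 was carried past the filter on low counts by the TME-CM libraries, so it had to be higher there. At 12 h, 3 of 34 rose, the same Ifitm genes, beside 1.22% of all genes. The median log2 fold change was 1.07 at 12 h and 0.71 at 24 h. At 24 h, 16 of 35 genes had an unadjusted p under 0.05, all higher. The share of all genes at this unadjusted threshold was not computed, so the count cannot be read as particular to these genes. All 4 TME-CM libraries lay above all H-CM libraries for 3 of 34 genes at 12 h (3.95% of all genes) and 7 of 35 at 24 h (5.59%).

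These counts rest on which libraries and genes enter. The shares of all genes called in the fits below were not computed, so their counts cannot be read as particular to these genes. Without H-CM replicate 1, 1 gene was called at 6 h, 16 at 12 h and 17 at 24 h. Without TME-CM replicate 1 the counts were 1, 7 and 9, and without H-CM replicate 3 the count at 12 h was 5. With no filter on low counts it was 20 at 12 h and 18 at 24 h, and 1 model of all 36 libraries called 3 at 24 h. Ifitm1 and Ifitm2 were called in each of these fits at both times, and so was Ifitm3. At 24 h, the log2 fold change of Ifitm1 was 3.38 without H-CM replicate 1 and 3.15 without TME-CM replicate 1, that of Ifitm2 1.25 and 1.21, and that of Ifitm3 1.23 and 1.06.

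Markers of other cells differed between the media as well. At 24 h, 4 of 8 fibroblast and smooth muscle markers were lower and 3 higher in TME-CM than in H-CM, and 1 of 2 endothelial markers tested was lower (10.2 to 24.6 CPM summed over 3 markers, against 30.7 to 60.3 CPM). None of the 8 glia markers and none of 10 macrophage and leukocyte markers was called with edgeR. Their part in the differences was not tested.

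**Figure D3:**
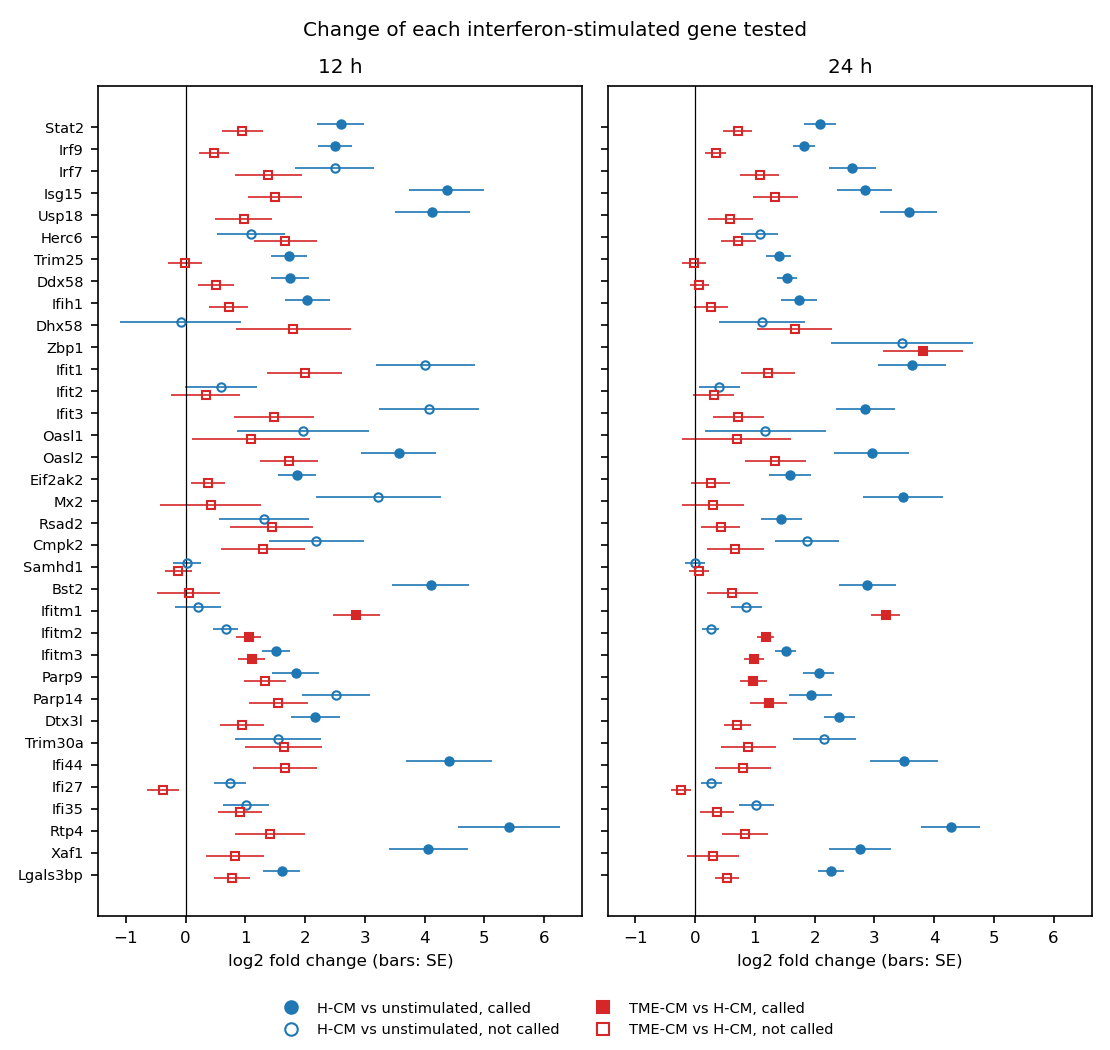
Log2 fold change (horizontal axis, bars are the SE) of each interferon-stimulated gene tested at 12 h and 24 h, for H-CM against unstimulated EGCs (circles) and TME-CM against H-CM EGCs (squares), filled where the edgeR adjusted p is under 0.05. The comparisons share the H-CM libraries. At 24 h, Ifitm1 lies at 0.86 for H-CM and 3.19 for TME-CM, and Trim25 at 1.40 and -0.02.

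The Ifitm genes encode small membrane proteins that keep viruses from fusing with the cell, and each showed another division between the media. Ifitm1 was at 15.3, 7.84, 11.4 and 6.29 CPM in unstimulated EGCs of 24 h and at 24.5, 16.2, 16.5 and 13.8 CPM in H-CM EGCs. In TME-CM EGCs it was at 178, 180, 186 and 112 CPM. No TME-CM library overlapped with H-CM, at a 9.11-fold difference (log2 3.19 ± 0.24, edgeR adjusted p = 9.50e-08). Its log2 fold change between H-CM and unstimulated EGCs was 0.86 (adjusted p = 0.106), and 0.21 at 12 h, where TME-CM was 7.26-fold above H-CM (adjusted p = 0.000467).

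Ifitm2 was at 152, 104, 109 and 96.6 CPM unstimulated, 157, 134, 128 and 133 CPM in H-CM and 300, 342, 273 and 344 CPM in TME-CM at 24 h. H-CM and unstimulated libraries overlapped and TME-CM libraries lay above both. The TME-CM to H-CM difference was 2.27-fold (log2 1.18 ± 0.14, adjusted p = 1.31e-05), against a log2 fold change of 0.26 between H-CM and unstimulated EGCs (adjusted p = 0.552).

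Ifitm3 rose at each step. It was at 388, 425, 483 and 454 CPM unstimulated, 1830, 1170, 1094 and 910 CPM in H-CM and 2142, 2213, 2649 and 2951 CPM in TME-CM at 24 h. The 3 groups did not overlap, with H-CM 2.86-fold above unstimulated EGCs (adjusted p = 3.59e-05) and TME-CM 1.98-fold above H-CM (adjusted p = 0.000861). At 12 h the second step was 2.15-fold (adjusted p = 0.00958), and it was past the threshold no more in a model of only the 8 libraries compared (adjusted p = 0.0568).

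**Figure D4:**
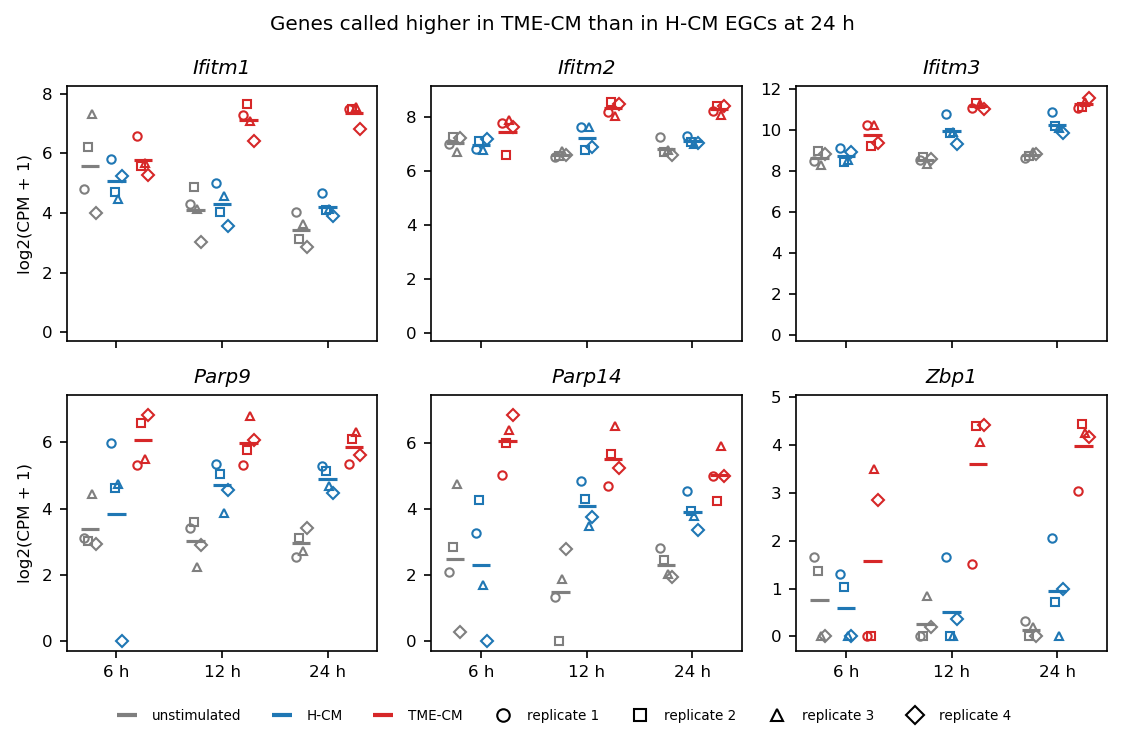
Levels of the 6 genes called higher in TME-CM than in H-CM EGCs at 24 h, as log2(CPM + 1) in each library (vertical axis) by time, where colours mark the medium, symbols the replicate number and lines the mean. H-CM Ifitm1 lies near the unstimulated libraries at 24 h (17.7 ± 4.65 and 10.2 ± 4.00 CPM), and H-CM Ifitm3 lies between the other groups (1251 ± 401 CPM, SD, n = 4).

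Zbp1, a sensor of Z-form nucleic acid that can start necroptosis, was close to the limit of detection outside TME-CM. At 24 h it was at 0 to 0.25 CPM unstimulated, 3.19, 0.647, 0 and 0.988 CPM in H-CM and 7.20, 20.7, 18.1 and 17.1 CPM in TME-CM. The groups of the 2 media did not overlap (log2 3.81 ± 0.67, adjusted p = 0.00154). Zbp1 passed the filter at 24 h alone, where the TME-CM libraries carried it, and 1 model of all 36 libraries gave an adjusted p of 0.229.

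Parp9 and Parp14 encode members of the ADP-ribosyltransferase family. Parp9 was at 37.8, 34.5, 24.4 and 21.3 CPM in H-CM and 40.2, 68.6, 78.7 and 48.4 CPM in TME-CM at 24 h, a 1.97-fold difference without overlap (adjusted p = 0.0133). Parp14 was at 22.7, 14.4, 13.0 and 9.39 CPM in H-CM and 31.4, 18.0, 59.8 and 31.2 CPM in TME-CM, where TME-CM replicate 2 fell within the H-CM range. Its difference was 2.35-fold (adjusted p = 0.0247). The Parp9 call was lost without H-CM replicate 3 or 4 or TME-CM replicate 3 (adjusted p up to 0.0708), and the Parp14 call without these or H-CM replicate 2 (up to 0.122).

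For other genes that H-CM raised, a step from H-CM to TME-CM was not called, which does not show that the media act alike. For Trim25 the log2 fold change at 24 h was -0.02, with a 95% interval from -0.44 to 0.41, and for Ddx58 it was 0.07 (-0.26 to 0.40). For Irf9 it was 0.35 (-0.02 to 0.71). These intervals lie below 1, a 2-fold rise. For Bst2 the estimate was 0.62 (-0.33 to 1.57) and for Usp18 0.59 (-0.22 to 1.39), so that a 2-fold rise lies within both. Without H-CM replicate 1 both were called, Bst2 at 1.31 (edgeR adjusted p = 0.000752) and Usp18 at 1.12 (adjusted p = 0.0295), while without TME-CM replicate 1 neither was.

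Isg15 was at 34.2, 25.2, 24.9 and 11.4 CPM in H-CM and 45.2, 70.1, 88.6 and 47.2 CPM in TME-CM at 24 h. The groups did not overlap, at 2.54-fold (log2 1.34, 95% interval 0.52 to 2.17), yet the adjusted p over all genes was 0.0641. It was 0.0389 without H-CM replicate 1 and 0.0608 without TME-CM replicate 1. Irf7, whose groups overlapped through TME-CM replicate 1, had a log2 fold change of 1.08 (interval 0.40 to 1.76, adjusted p = 0.0619) and was called with DESeq2, and also without H-CM replicate 1 (adjusted p = 0.0101) or TME-CM replicate 1 (0.00988).

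At the depth of 6 h, none of 30 genes was called between TME-CM and H-CM with edgeR (0.0972% of all genes were called higher), and 1, Isg15, with DESeq2. An unadjusted p under 0.05 was found for 10, all higher, and the share of all genes at that threshold was not computed. Of the 30, 6 lay in TME-CM above all H-CM libraries (3.53% of all genes). Isg15 was at 39.6, 44.8, 292 and 189 CPM in TME-CM and 7.28, 6.85, 13.3 and 0 CPM in H-CM, the 0 being that of the smallest library. Its adjusted p was 0.0644. Leaving out both libraries under 300000 counts left the count at 0.

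Genes with and without the ISRE letters were set side by side. With H-CM, the 12 tested genes with the letters had a median log2 fold change of 1.95 at 12 h and 1.92 at 24 h, and the 15 without had 1.96 and 1.83. Called were 7 of 12 and 7 of 15 at 12 h, and 10 of 12 and 8 of 15 at 24 h. For TME-CM against H-CM the medians with and without the letters were 1.08 and 0.94 at 12 h and 0.72 and 0.67 at 24 h. At 6 h the medians with the letters were the higher in each comparison, at 1.88 and 1.38 with H-CM, 3.50 and 2.87 with TME-CM and 1.71 and 1.03 between the media. These are descriptions of the windows given above, and no test was made.

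Changes over time within a medium were tested next. Between 12 h and 24 h, none of 36 genes was called in unstimulated, H-CM or TME-CM EGCs with edgeR or DESeq2, beside 0.0153%, 0.00763% and 0.626% of all genes. In each medium 1 gene had an unadjusted p under 0.05, a threshold at which the share of all genes was not computed. The comparison of 24 h with 6 h was added after the values were seen. In TME-CM EGCs, 3 of 35 genes were higher and 3 lower at 24 h than at 6 h (5.76% of all genes changed either way). Rsad2, whose product makes an antiviral nucleotide, was at 49.6, 108, 187 and 60.9 CPM at 6 h and at 5.61, 12.3, 15.6 and 12.1 CPM at 24 h. The times did not overlap, and the log2 fold change was -3.16 ± 0.77 (edgeR adjusted p = 0.0151).

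Ifit3 (log2 fold change -1.92, adjusted p = 0.0339) and Eif2ak2 (-2.06, adjusted p = 0.0151) were lower too. Higher at 24 h were Ifitm3 (log2 1.44, adjusted p = 0.00067), Lgals3bp (log2 1.53, adjusted p = 0.00423) and Ifitm1 (2.83-fold, adjusted p = 0.0425). The calls of Ifitm3 and Lgals3bp held with any 1 library left out, while the count fell from 6 to 2 without TME-CM replicate 1 of 24 h and to 3 without replicate 2. In H-CM EGCs only Ifitm3 was higher (log2 1.54, adjusted p = 0.00244), beside 0.178% of all genes, and in unstimulated EGCs only Ifitm1 was lower (-2.57, adjusted p = 0.00428, with overlap), beside 0.703%.

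**Figure D5:**
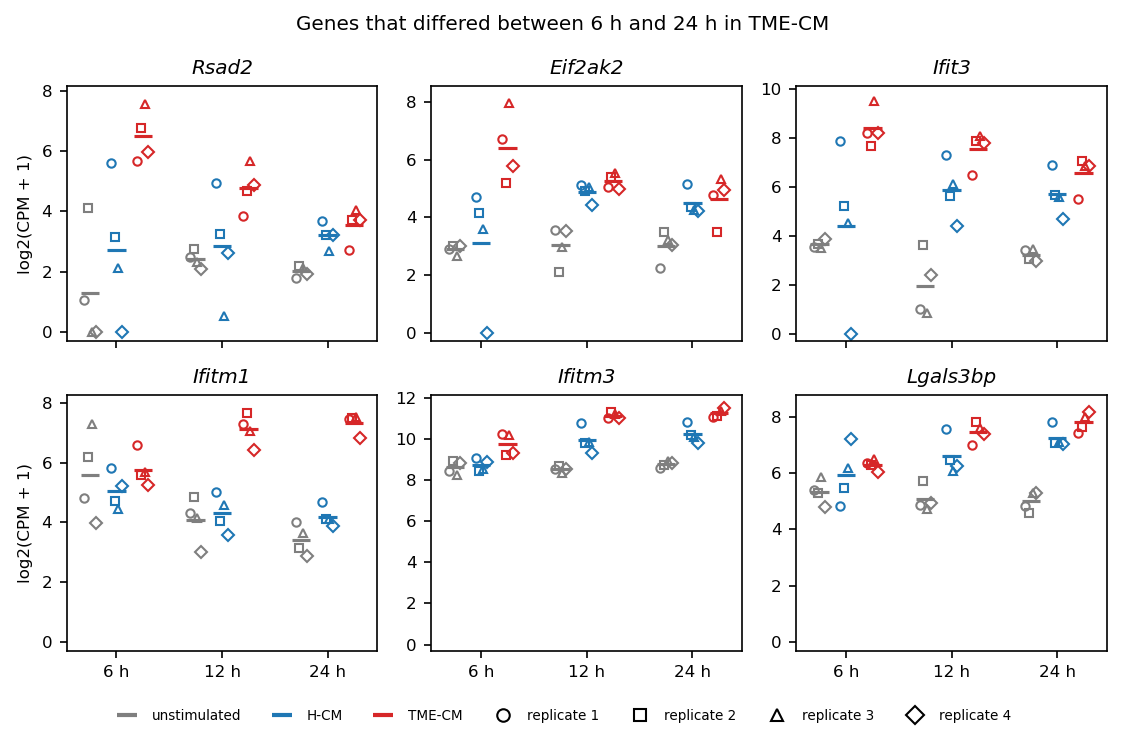
Levels of the 6 genes that differed between 6 h and 24 h in TME-CM EGCs, as log2(CPM + 1) in each library (vertical axis) by time, where colours mark the medium, symbols the replicate number and lines the mean. Rsad2, Eif2ak2 and Ifit3 are lower at 24 h in TME-CM, and Ifitm1, Ifitm3 and Lgals3bp are higher.

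Whether the gap between TME-CM and H-CM changed with time was tested in its own model. None of 35, 35 and 36 genes was called from 6 h to 12 h, from 6 h to 24 h or from 12 h to 24 h with edgeR, beside 0.00816%, 0% and 0% of all genes. An unadjusted p under 0.05 was found for 4, 4 and 0, with no share of all genes computed beside them. DESeq2 called 0, 1 and 0. Chosen after its values were seen, Ifitm1 had a change of the gap from 6 h to 24 h of log2 2.42 ± 0.52 (adjusted p = 0.0996), while that of Isg15 changed by -2.59 ± 0.77 (adjusted p = 0.289).

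Few counts of the ligand genes themselves were found in the EGCs. Of 21 interferon genes listed, 19 had 0 counts in 36 libraries, Ifnb1 and the Ifna genes among them. With 137821974 counts in all, this allows up to 0.0218 CPM of the pooled total, without TMM scaling. The limit within 1 library is higher, up to 222 CPM of the total in the smallest (H-CM replicate 4 of 6 h). Ifnz had 12 counts in 4 libraries and Ifng 1 count. Reads that map to several loci were discarded by the authors, which can remove reads of the near-identical Ifna genes.

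Of the 5 receptor genes tested, none was called in H-CM against unstimulated EGCs at 6 h, 12 h or 24 h, beside 0%, 0.354% and 1.07% of all genes that rose. Against H-CM, TME-CM raised Ifnar2 at 24 h (1.51-fold, adjusted p = 0.0347), the interferon gamma receptor gene Ifngr2 (1.93-fold, adjusted p = 0.0183) and Irf1 (1.94-fold, adjusted p = 0.0027). Irf1, a target of interferon gamma and of NF-kappaB, was at 34.7 ± 6.61 CPM in H-CM and 68.3 ± 17.8 CPM in TME-CM (SD, n = 4).

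Of 7 negative regulators, Socs3, which STAT3 induces, was alone in being called, 4.39-fold higher in TME-CM than H-CM at 24 h (log2 2.13 ± 0.23, adjusted p = 3.93e-06). Of 8 genes of nucleic acid sensing tested, Tmem173 (STING) was the 1 called there (2.05-fold, adjusted p = 0.00211). Among all genes, 2.75% were called higher in TME-CM than H-CM at 24 h. The calls of Socs3, Tmem173, Ifnar2, Ifngr2 and Irf1 were not checked with libraries left out or in 1 model of all 36 libraries.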

How the data were processed

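Values were counts per gene, deposited by the authors without normalization. The authors aligned 3′ mRNA reads (QuantSeq) to mm10 with HISAT2, discarded reads at several loci and counted with HT-seq Count. FastQC 0.11.7 and SAMtools 1.5 are named in the submitters' processing notes. Annotation, strand setting and molecular identifiers were not given in the sources used here. The analysis used edgeR 4.0.16 under R 4.3.3 (filterByExpr, minimum count 10, TMM, robust quasi-likelihood test) in 1 model per time over 12 libraries, with Benjamini-Hochberg adjustment over all genes tested (9256, 12156 and 12713 genes), and DESeq2 1.42.0 as an alternative. The calling was tested on simulated data. CPM and the score (prior count 2) use 1 TMM scale over 36 libraries. The limits behind a 0 and the cutoffs of the filter use library totals alone. Fold changes come from the models of each time. Named genes are those called between TME-CM and H-CM (up to 12), a fixed list of pathway genes (Isg15, Irf7, Stat2, Irf9, Usp18, Ifit1, Ifit3, Bst2, Ifitm1, Ifitm2, Ifitm3) and up to 5 further genes called with H-CM by smallest adjusted p. Others were named after their values were seen. The members and lists were chosen with earlier results of these data known. A signal gene of the pathway is not reported here.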

Additional observations from a re-analysis of the deposited data

Results flagged for a closer look

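A library lay far from the other 3 of its group, by Dixon's test of the gap over the range (above its 95% critical value), in 10 of 180 sets of 4 libraries tested, over the score and 19 genes named above, and chance flags about 1 in 20. In TME-CM, replicate 1 was the low one for Zbp1 at 12 h (0.884), for Irf7 at 6 h (0.912) and 24 h (0.843), for Ifit3 at 24 h (0.861), for Trim25 at 6 h (0.857) and for Rtp4 at 24 h (0.862). Ifitm1 was lowest in TME-CM replicate 4 of 24 h (0.913). Lgals3bp was highest in H-CM replicate 1 of 24 h (0.911), and Rtp4 was lowest in H-CM replicate 4 of 6 h (0.889), the smallest library. Parp9 was highest in unstimulated replicate 3 of 6 h (0.887), which held 256453 counts.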

How the results depend on the processing

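Depth limits the values of 6 h, and 1 library per medium limits those of TME-CM against H-CM. Counts below are of interferon-stimulated genes called, and the shares of all genes called in these alternative fits were not computed. TME-CM against H-CM at 6 h gave 3 with no filter, 1 with DESeq2, 1 with Yam1 left out, 1 with only the 8 libraries compared and 4 in 1 model of all 36. At 12 h it gave 20 with no filter and 6 with DESeq2, and at 24 h 18 with no filter and 3 in the model of 36. TME-CM against unstimulated EGCs at 6 h gave 13 with no filter, 13 with DESeq2 and 25 in the model of 36. H-CM against unstimulated EGCs gave 1 at 6 h with no filter and 11 at 24 h in the model of 36. With no filter, the gap between media changed for 2 genes from 6 h to 12 h and 2 from 6 h to 24 h (1 with DESeq2), 24 h against 12 h gave 2 in unstimulated and 2 in TME-CM EGCs, and 24 h against 6 h gave 3 in H-CM EGCs (2 with DESeq2). The cause was not tested. As a median in place of a mean, the score difference was 3.42 (6 h), 3.67 (12 h) and 2.93 (24 h) for TME-CM against unstimulated EGCs, and 2.45 and 2.08 for H-CM at 12 h and 24 h. With a prior count of 0.5, that of TME-CM at 12 h was 3.49.

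With 1 library left out, TME-CM against H-CM gave 0 to 1 genes at 6 h, 3 to 16 at 12 h and 4 to 17 at 24 h. Against unstimulated EGCs, TME-CM gave 4 to 12, 26 to 29 and 31 to 31, and H-CM 0 to 0, 8 to 19 and 19 to 24. The change of the gap gave 0 to 1, 0 to 3 and 0 to 0. The 24 h against 12 h count stayed at 0 in each medium, and 24 h against 6 h gave 1 to 1 in unstimulated, 1 to 2 in H-CM and 2 to 8 in TME-CM EGCs. Score differences ran from 0.958 to 2.22, 1.04 to 1.56 and 0.597 to 0.960 between the media, from 1.94 to 2.70, 2.97 to 3.29 and 2.32 to 2.62 for TME-CM against unstimulated EGCs and from 0.0446 to 1.31, 1.51 to 2.03 and 1.49 to 1.85 for H-CM.

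Between media at 1 time, deviations of same-numbered libraries correlated at -0.161 to 0.223 and were not all over 0.1, so the numbers were not taken as pairs, and the labels name no shared culture. As a hint from the data, unstimulated and H-CM libraries of 24 h correlated best with their own number in 4 of 4, and the H-CM replicates had the same order of scores at all 3 times, so comparisons between times may not rest on independent libraries. With the number as a replicate block, TME-CM against H-CM at 12 h gave 5, and the other counts stayed within 1.5 times. Over 49 results for single genes, 641 of 734 alternatives kept direction and call, 93 lost the call and 0 reversed.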
